A study of Mus musculus with 12 samples.

Results

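The 2 mature strands of the miR-21a hairpin, miR-21a-5p and miR-21a-3p, were described across mouse skin and skin tumours. They were chosen by name, as mmu-mir-21a-5p and mmu-mir-21a-3p, with earlier results of these data known. They are 2 of the 1251 rows of the deposited small RNA sequencing table. Both lay above the detection floor in all 12 libraries. The study compared untreated dorsal skin with cutaneous squamous cell carcinoma (SCC) in wild-type (WT) and TAp63-/- mice, all labelled C57Bl6. TAp63 is the long isoform of p63, a p53-family transcription factor of stratified epithelium. Skin came from mice of 4 weeks that received no ultraviolet radiation (UVR), with 3 WT and 3 TAp63-/- libraries. The SCC came from mice over 35 weeks old after chronic UVR at 2.5 kJ per square metre, 3 times a week, with 2 WT and 4 TAp63-/- libraries. Tumour, age and UVR exposure therefore cannot be told apart. The labels do not state that each library is a separate mouse, so p-values measure the spread between these libraries, which may be partly technical.

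In miRNA processing, the hairpin is cut to a short duplex, and Argonaute keeps 1 strand as the guide while the other, the passenger, is mostly degraded. miR-21a-5p is the usual guide of miR-21a. It is known as an abundant miRNA of epithelial tumours and wounded skin, its gene is induced by the AP-1 and STAT3 transcription factors, and it represses the tumour suppressor Pdcd4. miR-21a-3p is the passenger strand, also written miR-21*, and can itself enter Argonaute.

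The mature strands are printed 5′ to 3′ as RefSeq gives them (GRCm38.p6, which is mm10), with the seed (bases 2 to 8) in capitals. They show that the arms have different seeds and that another row of the table shares the guide's seed.
miR-21a-5p: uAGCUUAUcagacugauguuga
miR-21a-3p: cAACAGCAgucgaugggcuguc
miR-21c: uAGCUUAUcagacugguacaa
miR-21b: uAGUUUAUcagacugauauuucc
The hairpin, of 92 bases, lies on the minus strand of chromosome 11 at 86584067 to 86584158. GENCODE M21 places it within exon 12, in the 3′ untranslated region, of the same-strand protein-coding gene Vmp1. Within the hairpin, miR-21a-5p takes bases 18 to 39 and miR-21a-3p bases 56 to 77. Of 1679 mouse mature miRNA names in the RefSeq table, 2 have the seed AGCUUAU, miR-21a-5p and miR-21c, and only miR-21a-3p has AACAGCA. miR-21c, from a hairpin on chromosome 8 at 128278148 to 128278225, is identical to miR-21a-5p over the first 15 bases. Counted from the 5′ end of miR-21a-5p, the differences are A16G, G18A, U19C, U20A and G21A. miR-21b, from chromosome 3, differs in the seed (C4U) and at G18A, G21U and A22C.

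Levels are the authors' log2 values, quantile normalized between libraries, and no value lies below log2 of 10 (the floor). Quantile normalization gives each rank nearly the same value in every library, so the most abundant miRNA always reads 20.00 and the next 19.25. Depth is unknown. Between 370 and 545 rows per library lay above the floor, with 370 to 465 in skin and 402 to 545 in SCC. Skin and tumour sample titles carry different prefixes, and the labels do not say what they mark. The keratinocyte miRNAs miR-205-5p, miR-203-3p and the miR-200 family were present in every group, with summed levels of 18.28 to 19.28. These are bulk tissues, so fewer cells of a type and less RNA per cell cannot be told apart.

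The guide arm rose from an abundant skin miRNA to the most abundant miRNA of 5 of the 6 tumours. In WT skin the level of miR-21a-5p was 16.29, 17.07 and 16.78 (ranks 17, 11 and 13), and in TAp63-/- skin it was 16.02, 17.72 and 17.54 (ranks 20, 7 and 8). In WT SCC it was 20.00 and 19.25 (ranks 1 and 2), and in all 4 TAp63-/- SCC libraries it was 20.00 (rank 1). Every tumour lay above every skin library, and the ranges of the genotypes overlapped in skin. miR-21a-5p made up 1.09% to 3.56% of the summed linear values in skin libraries, 10.3% in WT SCC replicate 2 and 17.3% in the other 5 tumours, the share fixed for the highest rank. In those 5 tumours the guide could not read higher, and its zero spread in TAp63-/- SCC comes from the scale.

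The passenger arm rose further, and its groups did not overlap at all. How many other miRNAs kept these groups, or tumours and skin, apart was not counted. Its level was 6.42, 5.42 and 7.51 in WT skin, where miR-21a-3p ranked 232 to 330. In TAp63-/- skin it was 9.67, 10.60 and 8.80 (ranks 117 to 176). In WT SCC it was 13.70 and 12.22 (ranks 51 and 76), and in TAp63-/- SCC it was 13.99, 14.25, 14.99 and 13.99 (ranks 32 to 47). The order of the groups was thus WT skin, TAp63-/- skin, WT SCC and TAp63-/- SCC, with means of 6.45 ± 1.05 (SD, n = 3), 9.69 ± 0.90 (SD, n = 3), 12.96 ± 1.05 (SD, n = 2) and 14.31 ± 0.47 (SD, n = 4). Neither the floor nor the ceiling touched miR-21a-3p in any library. The highest value, in TAp63-/- SCC replicate 3, came from the library with the most rows above the floor (545). The highest skin value came from the skin library with the most (465, TAp63-/- skin replicate 2). Other libraries went the other way. WT skin replicate 2 had the most such rows of its group (433) but the lowest value, and WT SCC replicate 1 (402) lay above replicate 2 (420). TAp63-/- skin replicate 1 had the fewest rows of all (370) and a level of 9.67. The part of detection depth in these levels was not tested.

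**Figure D1:**
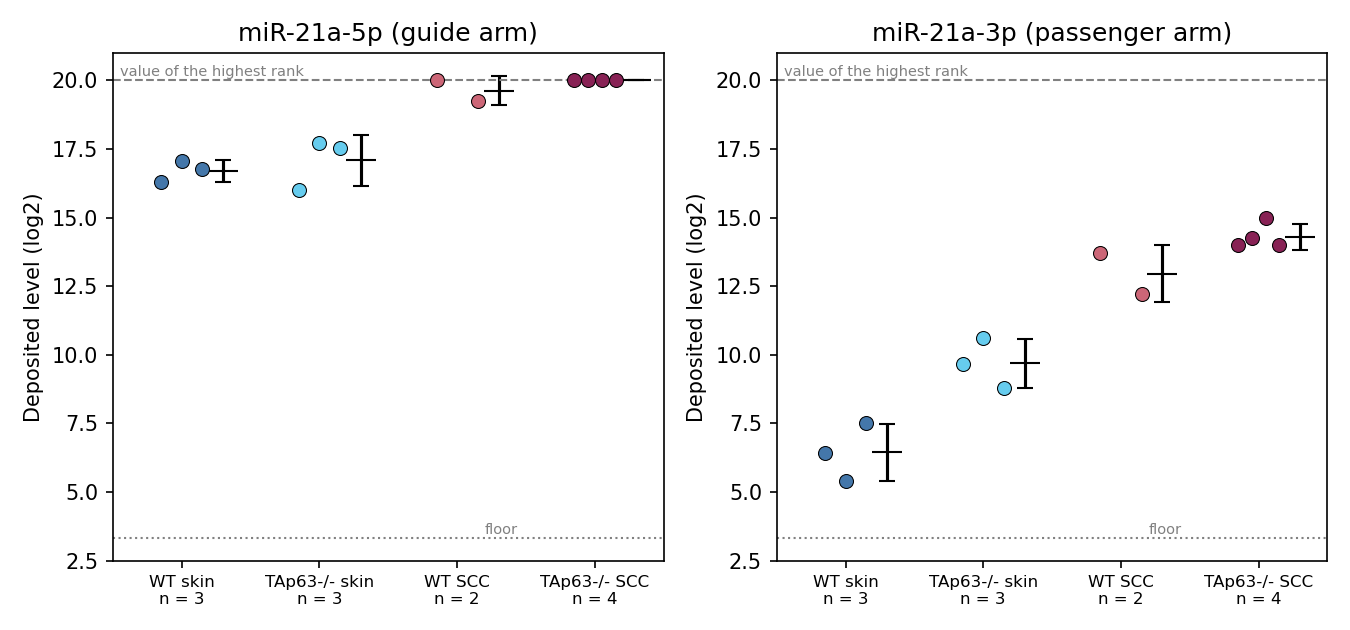
Deposited log2 levels of miR-21a-5p (left) and miR-21a-3p (right) in each library, by group; points are libraries, and the bars beside them give the mean and SD. miR-21a-5p reached the dashed ceiling of 20.00 in 5 tumours, while miR-21a-3p ran from 5.42 to 14.99 without meeting the ceiling or the dotted floor.

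Limma across the 544 miRNAs that 2 or more libraries held above the floor gave the tests, with Benjamini-Hochberg adjusted p-values. Averaged over the genotypes, SCC exceeded skin by 2.91 ± 0.29 (log2, SE) for miR-21a-5p (7.51-fold, 95% interval 2.27 to 3.55, limma adjusted p = 2.7e-05). For miR-21a-3p the excess was 5.57 ± 0.44 (47.4-fold, interval 4.60 to 6.54, limma adjusted p = 8.0e-06), the largest rise of the 544 miRNAs, while miR-21a-5p was in place 13. Of all miRNAs tested 20.4% were called higher and 21.5% lower, and the median change was 0.04. The fit pools the spread of all groups for each miRNA. The TAp63-/- SCC values of miR-21a-5p, all at the ceiling, add none, so its SEs, intervals and p-values may be too small in every contrast.

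Within each genotype both arms were again higher in tumours. In WT mice the change was 2.91 ± 0.45 for miR-21a-5p (limma adjusted p = 0.00203) and 6.51 ± 0.68 for miR-21a-3p (91.4-fold, limma adjusted p = 2.6e-04), where 18.2% of miRNAs were called, 8.82% higher and 9.38% lower. In TAp63-/- mice it was 2.91 ± 0.37 for miR-21a-5p (limma adjusted p = 2.7e-04) and 4.62 ± 0.57 for miR-21a-3p (24.6-fold, limma adjusted p = 2.3e-04), where 34.2% were called, 16.0% higher and 18.2% lower. miR-21a-3p had the largest rise of all 544 in WT and was in place 4 in TAp63-/- mice. The tumour effect of TAp63-/- minus that of WT was -0.01 ± 0.58 for miR-21a-5p (95% interval -1.29 to 1.28) and -1.90 ± 0.88 for miR-21a-3p (interval -3.84 to 0.05, limma adjusted p = 0.613). No miRNA was called for this interaction by limma, and 41 of 544 had an unadjusted p under 0.05. The guide's interval cannot show a difference above the ceiling.

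TAp63-/- and WT mice were then compared within each tissue. In skin, the TAp63-/- level of miR-21a-3p was 3.24 ± 0.61 higher (9.46-fold, 95% interval 1.91 to 4.57), the largest upward difference of the 544 miRNAs, with all 3 TAp63-/- libraries above all 3 WT libraries. It was not called (limma adjusted p = 0.121, unadjusted p = 2.2e-04), and neither was any other miRNA in this comparison (0% called, 31 with an unadjusted p under 0.05). Library quality weights (3.80, adjusted p = 0.00381) or leaving out TAp63-/- skin replicate 3 (3.69, adjusted p = 0.0497) gave a call. For miR-21a-5p the skin difference was 0.38 ± 0.40 (interval -0.50 to 1.26, limma adjusted p = 1.0). In tumours, miR-21a-3p was 1.34 ± 0.64 higher in TAp63-/- mice (interval -0.07 to 2.76, limma adjusted p = 0.538), with all 4 libraries above both WT libraries, and miR-21a-5p was 0.38 ± 0.42 higher (interval -0.56 to 1.31, limma adjusted p = 0.828). Over all miRNAs, 0.184% were called between the tumours. These differences rest on 2 WT SCC libraries. Without replicate 1 they were 2.09 for miR-21a-3p and 0.75 for miR-21a-5p, and without replicate 2 they were 0.60 and 0. For miR-21a-5p the tumour values follow from the fixed levels of ranks 1 and 2, so they cannot measure a genotype difference. For miR-21a-3p, an exact two-sided permutation test over samples gave p = 0.10 in skin and p = 0.0667 in tumours, the smallest these group sizes allow. How many other miRNAs separated the genotypes as fully was not counted.

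The difference between the arms within a library, miR-21a-3p minus miR-21a-5p, is free of any scaling that multiplies a whole library. This difference still depends on quantile normalization, which sets the value of each arm by rank. In WT skin it was -9.87, -11.66 and -9.27 (log2), so the guide exceeded the passenger by 618-fold to 3226-fold. In TAp63-/- skin it was -6.35, -7.12 and -8.75, or 81.7-fold for replicate 1. The difference was -6.29 and -7.03 in WT SCC and -6.01, -5.75, -5.01 and -6.01 in TAp63-/- SCC, or 32.2-fold to 131-fold over all tumours. The guide therefore dominated in every library, and the passenger's share of both arms was 0.0310% to 0.162% in WT skin, 0.232% to 1.21% in TAp63-/- skin, 0.760% and 1.26% in WT SCC, and 1.53% to 3.01% in TAp63-/- SCC. WT skin stood below all other libraries, while TAp63-/- skin overlapped WT SCC.

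**Figure D2:**
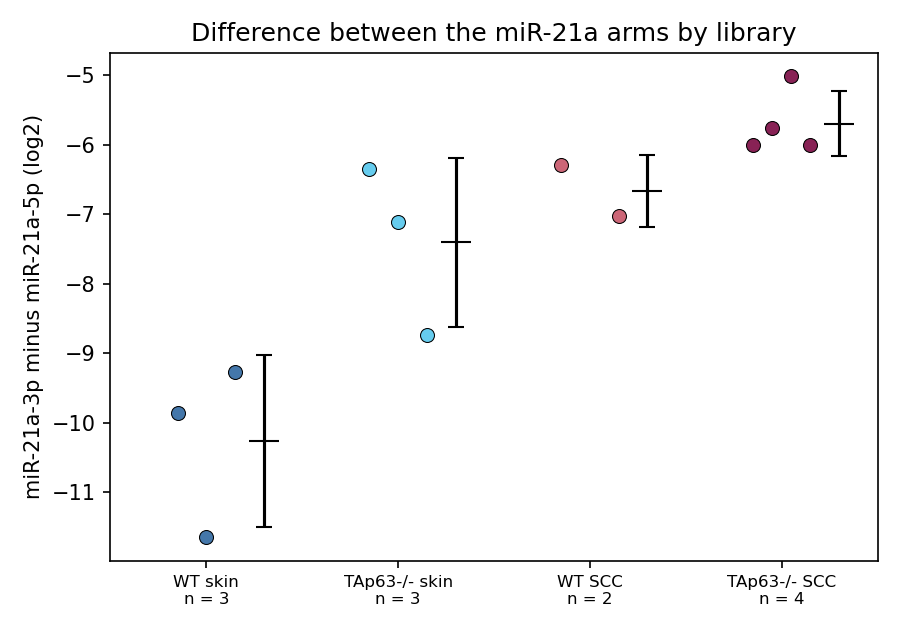
Difference between the miR-21a arms (3p minus 5p, log2) in each library, by group; points are libraries, with the mean and SD beside them. WT skin lies between -11.66 and -9.27, below the other 3 groups, and TAp63-/- SCC lies highest, between -6.01 and -5.01.

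The same difference was fitted for the 147 miRNA stems with both arms in the table and above the floor in at least 2 libraries. A rise of this difference is called here a gain of the 3p arm. Averaged over the genotypes, the miR-21a arm difference rose by 2.66 ± 0.43 in SCC (95% interval 1.74 to 3.58, limma adjusted p = 1.4e-04). An exact two-sided permutation test over samples, within genotypes, gave p = 0.00286, the smallest it can give. Among all 147 pairs, 36 gained the 3p arm (24.5%) and 24 the 5p arm (16.3%), and the median shift was 0.07. Unequal change of the arms was thus common, and miR-21a was in place 5 of 147 for gain of the 3p arm.

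By genotype, the arm difference rose by 3.60 ± 0.67 in WT tumours (limma adjusted p = 9.3e-04) and by 1.71 ± 0.56 in TAp63-/- tumours (limma adjusted p = 0.0324). In WT mice 29.3% of pairs were called, 17.7% with a gain of the 3p arm and 11.6% of the 5p arm, and in TAp63-/- mice 25.9% were, 17.7% and 8.16%. The exact permutation test gave p = 0.0286 in TAp63-/- mice and p = 0.10 in WT mice, in both cases the smallest these group sizes allow. The TAp63-/- call was lost without TAp63-/- skin replicate 3 (1.04, adjusted p = 0.156) or TAp63-/- SCC replicate 1, 3 or 4 (adjusted p 0.0514 to 0.0720). The ceiling on miR-21a-5p enters these tumour values, since the normalization fixes the guide's value at rank 1. Whether it raises or lowers the arm difference is not known without the values before normalization. In WT SCC replicate 2 the guide held rank 2, whose value the normalization also fixes, and with this tumour as the only WT SCC library the WT shift was 3.24 (limma adjusted p = 0.018). The part of the ceiling in the tumour shift was not tested.

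The ceiling does not touch skin. There the arm difference was 2.86 ± 0.60 higher in TAp63-/- than in WT mice (95% interval 1.60 to 4.12, limma adjusted p = 0.0285), with no overlap between the groups. How many other pairs separated in this way was not counted. Of the 147 pairs 3.40% were called, 2 (1.36%) for gain of the 3p arm, miR-21a and miR-582. The other 3 (2.04%) were called for gain of the 5p arm, miR-330, miR-127 and miR-532. miR-330-3p was above the floor in only 7 libraries. The names other than miR-21a were chosen after their values were seen. For miR-21a the exact permutation test gave p = 0.10, its smallest value for 3 against 3. The call was lost in the fit of skin libraries alone (adjusted p = 0.141), without a filter beyond 1 library above the floor (0.0536), and without WT skin replicate 1 or 2 or TAp63-/- skin replicate 1 or 2 (adjusted p 0.0678 to 0.120). In tumours the arm difference was 0.97 ± 0.63 higher in TAp63-/- mice (interval -0.37 to 2.31, limma adjusted p = 0.667, with 0 of 147 pairs called and 11 with an unadjusted p under 0.05). The interaction was -1.89 ± 0.87 (limma adjusted p = 0.347, with 0 of 147 called and 19 with an unadjusted p under 0.05).

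Other pairs show what kinds of shift these tumours held. The 5 largest gains of the 3p arm, by the averaged contrast, were of miR-5117 (3.01 ± 0.43), miR-100 (2.93 ± 0.30), miR-331 (2.85 ± 0.39), miR-212 (2.78 ± 0.37) and miR-21a. Of the first 4, miR-100-3p, miR-5117-3p and miR-331-5p were above the floor in 5, 6 and 3 libraries, and the arms of miR-212 changed in opposite directions (-1.30 for 5p and 1.47 for 3p). Both arms of miR-21a were above the floor in all 12. The largest gains of the 5p arm were of miR-341 (-2.71), miR-188 (-2.24), miR-3107 (-1.87), miR-322 (-1.84) and miR-330 (-1.67). Of these, miR-341-5p, miR-188-3p and miR-330-3p were above the floor in 8, 7 and 7 libraries, and miR-3107 shares the values of an arm with miR-486. Both arms were called higher in SCC in 18 of the 147 pairs. Chosen by those calls, they are a description. Of these 18, 3 also had a called shift between the arms, a smaller share than the 40.8% of all 147 pairs. These were miR-21a (2.66), miR-98 (1.78) and miR-335 (1.66), all toward 3p. The shifts that were not called went in both directions. The arms of miR-31, another miRNA abundant in squamous carcinoma, rose by 3.95 (miR-31-5p) and 4.58 (miR-31-3p), and their arm shift of 0.63 ± 0.34 was not called (limma adjusted p = 0.152).

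**Figure D3:**
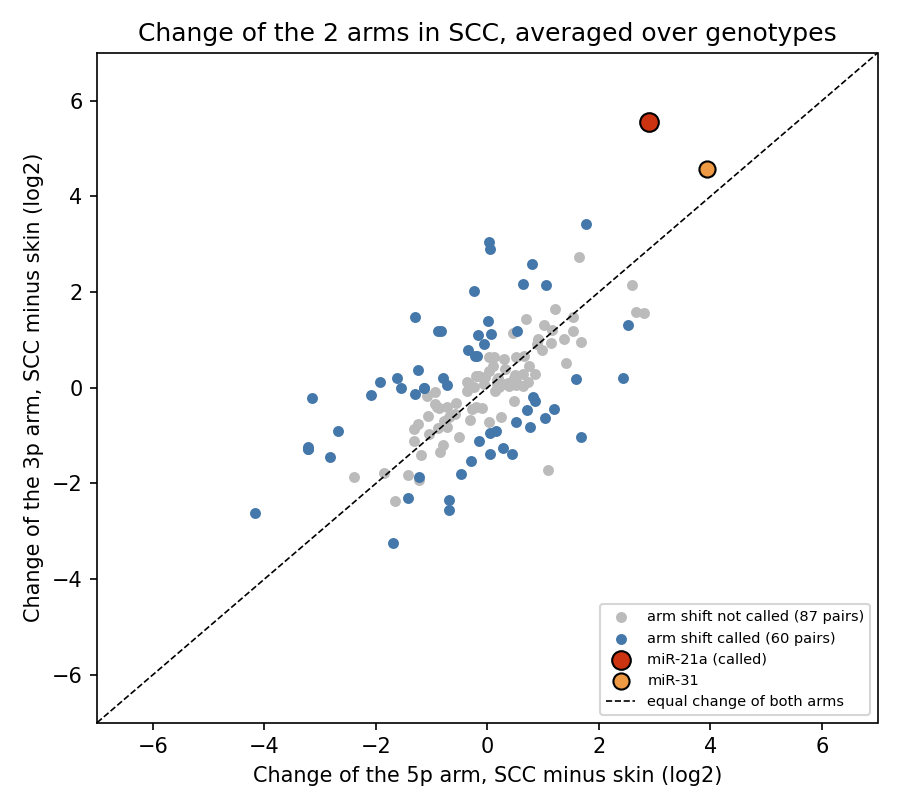
Change of the 5p arm (horizontal) and of the 3p arm (vertical) in SCC against skin, averaged over genotypes (log2), for 147 arm pairs; blue points had a called shift between the arms, and the dashed line marks equal change. miR-21a (red) lies at 2.91 and 5.57, above the line, and miR-31 (orange) at 3.95 and 4.58, close to it.

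Between pairs, miR-21a began among those weighted most to the 5p arm and became less so. In WT skin 7 of the 147 pairs had a lower group mean of the 3p minus 5p difference, against 16 in TAp63-/- skin, 24 in WT SCC and 28 in TAp63-/- SCC. The median over pairs stayed between -0.87 and -0.59 in the 4 groups.

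miR-21c is nearly a copy of the guide over its first bases, and how the authors assigned reads that match both is not given in the sources used here, so its values are uncertain. The level of miR-21c was 6.85, 7.96 and 6.68 in WT skin, and 5.45, 9.13 and 9.13 in TAp63-/- skin. In tumours miR-21c was at 8.35 and 8.53 in WT and at 10.57, 10.08, 10.20 and 9.31 in TAp63-/- mice. It lay 8.41 to 11.64 below miR-21a-5p on the log2 scale, so it was a small fraction of the guide in every library. Its averaged tumour change was 1.71 ± 0.61 (limma adjusted p = 0.0415), but that call was lost when any of 7 of the 12 libraries was left out (adjusted p 0.0577 to 0.107). Those were WT skin replicates 1 and 3, both WT SCC libraries, and TAp63-/- SCC replicates 1, 2 and 3. The deviations of miR-21c and miR-21a-5p from their group means correlated over the 12 libraries at r = 0.85, against r = 0.13 between the arms of miR-21a. By Spearman rank correlation the same deviations gave 0.63 and 0.11. Over the 6 skin libraries r was 0.96 for miR-21c and miR-21a-5p and 0.26 for the arms. Over the 6 SCC libraries the order was reversed, with r of 0.52 for miR-21c and miR-21a-5p and 0.88 for the arms. Levels share the library's normalization, and the 5 ceiling values limit the r of the guide. miR-21b, miR-590-5p and miR-590-3p were listed at the floor in all 12 libraries.

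**Figure D4:**
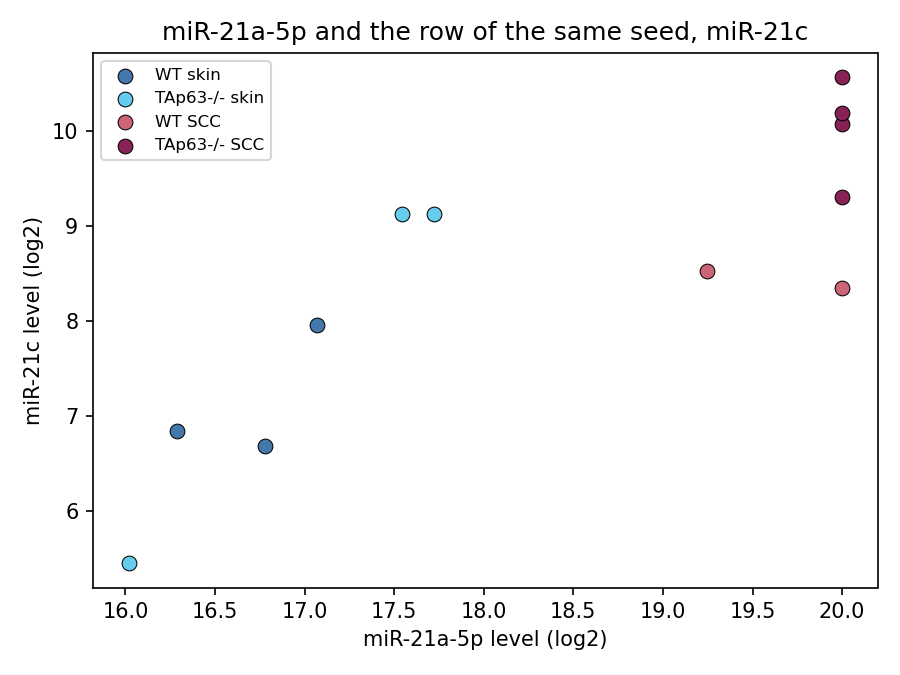
Level of miR-21c (vertical) against miR-21a-5p (horizontal) in the 12 libraries, both log2, coloured by group. In skin the 6 points mostly rise together (r = 0.96), and 5 tumours share the ceiling of 20.00 on the horizontal axis.

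The miRNAs whose levels were most like each arm over the 12 libraries differed between the arms. By Pearson r among the other 543 tested miRNAs, miR-21a-5p was most like miR-103-3p (0.97), miR-872-3p (0.96), miR-6539 (0.96), miR-30e-5p (0.95) and miR-106b-3p (0.95). Least like it were miR-195a-3p (-0.99), miR-218-1-3p (-0.97) and miR-10b-3p (-0.96). miR-21a-3p was most like miR-423-3p (0.97), miR-92a-3p (0.96), miR-193a-3p (0.95), miR-28a-3p (0.95) and miR-149-5p (0.94). At the other end were miR-100-5p, miR-99a-5p and miR-409-5p (all -0.94). Each arm stood at r = 0.91 to the other, in place 12 or 13. The skin and tumour split is shared by all these values.

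Other miRNAs tied to the AP-1, STAT3 or NF-kB pathways did not move in 1 direction. Of 11 listed, 10 were tested, and 5 were called higher and 3 lower in the averaged tumour comparison, against 41.9% of all miRNAs called in either direction. Their median was 0.73, beside 0.04 over all. Higher were miR-31-5p, miR-31-3p, the myeloid miR-223-3p (1.20 ± 0.33), and miR-132-3p (0.80 ± 0.28) and miR-212-3p (1.47 ± 0.42) of a cluster linked to wound healing. Lower were miR-146a-5p (-2.50 ± 0.25) and miR-146b-5p (-0.91 ± 0.29), which dampen NF-kB signalling, and miR-181b-5p (-1.22 ± 0.26). miR-221-3p (0.67 ± 0.31) and miR-222-3p (0.60 ± 0.31) were not called, and miR-155-5p was at the floor in all libraries. Without WT SCC replicate 1, miR-146b-5p (-0.60, adjusted p = 0.146), miR-223-3p (0.89, adjusted p = 0.0793) and miR-132-3p (0.85, adjusted p = 0.0843) were not called. Without WT SCC replicate 2, miR-132-3p (0.74, adjusted p = 0.112) and miR-212-3p (1.25, adjusted p = 0.0717) were not called, and miR-221-3p was (1.04, adjusted p = 0.0221). For miR-146b-5p, leaving out WT skin replicate 2 or 3 or TAp63-/- skin replicate 3 also ended the call, and for miR-132-3p, leaving out any WT skin library, TAp63-/- skin replicate 1 or TAp63-/- SCC replicate 2, 3 or 4 did so.

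miR-21a is also made by leukocytes and fibroblasts, and markers of several cell types moved with the tumours. The counts that follow stand beside 20.4% of all miRNAs called higher and 21.5% called lower, and small lists near those shares show nothing particular to them. Of 4 leukocyte markers 2 rose, and their summed level was 14.19 to 14.65 in WT skin, 14.26 to 14.62 in TAp63-/- skin, 14.94 to 15.37 in WT SCC and 13.96 to 15.91 in TAp63-/- SCC. Of 4 fibroblast markers 2 fell, with summed levels of 15.50 to 16.02, 15.62 to 16.06, 15.44 to 15.75 and 15.23 to 16.04 in the same order. All 4 striated muscle markers fell, from 16.02 to 16.46 in skin to 12.21 to 14.94 in SCC, and both melanocyte markers fell, from 11.18 to 12.67 to between 6.47 and 10.73. Of 3 red cell markers 2 rose (summed level 14.05 to 16.56 over all libraries), 1 of 2 endothelial markers rose (15.53 to 16.50), and of 7 keratinocyte markers 1 rose and 1 fell. The fall of miR-203-3p (-0.60) lost its call without any 1 of 7 libraries, namely the WT SCC pair, WT skin replicate 2, and replicates 2 and 3 of TAp63-/- skin and of TAp63-/- SCC (adjusted p 0.0612 to 0.106). The rise of miR-126-5p (0.50), the endothelial one, lost it without WT skin replicate 2 or 3, any TAp63-/- skin library, WT SCC replicate 2 or TAp63-/- SCC replicate 3 (adjusted p 0.0504 to 0.107). These counts are of the averaged comparison. In WT tumours 0 leukocyte and 0 endothelial markers were called, against 2 and 1 in TAp63-/- tumours. All 4 striated muscle markers were called lower in both genotypes. No marker list had a member at the floor in all libraries. Their part in the rise of miR-21a was not tested. Between TAp63-/- and WT skin no marker of these lists was called, as was the case for all 544 miRNAs (0%).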

How the data were processed

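The authors deposited 1 table of log2 values for 1251 mouse miRNA names, and its 12 value columns were matched to sample titles. Per the labels' protocols, miRVana was used to extract total RNA. The build was mm10 (submitters' processing notes). How reads were aligned and counted is not given in the sources used here. Judged by the values, which share a maximum and sum on the linear scale to between 6065013 and 6065621 in each library, the table was quantile normalized. Depth is therefore unknown.

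The 544 rows that passed a filter of 2 libraries over the floor were fitted with limma 3.58.1 in R 4.3.3, with group means and trended, robust variances (8 residual degrees of freedom), and so was the 3p minus 5p difference of 147 arm pairs. Among these pairs, 4 sets of stems share the values of an arm. P-values were two-sided, Benjamini-Hochberg adjusted over all features of a contrast, and called under 0.05. Exact permutation tests ran in Python 3.11.15. The fit was tested on simulated data.

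Named miRNAs are the 2 arms, rows named miR-21b, miR-21c or miR-590, the 5 most and 3 least like each arm, the 5 largest called arm shifts in each direction, called members of the AP-1, STAT3 or NF-kB list, and the highest row of a library. The members, the lists and the cell type markers were chosen with earlier results of these data known. Replicates were numbered in accession order. Alternatives changed the filter, pseudocount, scaling, variance model, library weights and samples fitted, left out each library, or blocked on the running numbers in titles.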

Additional observations from a re-analysis of the deposited data

How the results depend on the processing

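All 6 tumour changes of the levels (each arm in WT, in TAp63-/- and averaged) kept their direction and their call under every limma alternative run. The exact permutation test gave p = 0.10 for both arms in WT, the smallest it can give there. Averaged, miR-21a-5p ranged from 2.64 to 3.10 and miR-21a-3p from 5.19 to 5.94, and the averaged arm difference, which also kept its call, from 2.31 to 2.96. Leaving out 1 library at a time, the arm difference ranged from 1.04 to 2.24 in TAp63-/- tumours and from 2.91 to 4.10 in WT tumours. For the TAp63-/- minus WT comparison in skin, it ranged from 2.17 to 3.53 for the arm difference and from 2.73 to 3.77 for miR-21a-3p. The interaction of miR-21a-5p ranged from -0.54 to 0.37, so it changed sign.

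The exact permutation test left the WT arm shift (3.60, p = 0.10) and the TAp63-/- minus WT skin arm difference (2.86, p = 0.10) uncalled, at the smallest p these groups allow. That skin difference was 2.86 and uncalled in the fit of skin alone and with no filter, and 1.45 and uncalled (adjusted p = 0.861) with the block on title numbers, where that of miR-21a-3p was 1.76. Library quality weights made the skin difference of miR-21a-3p a call, at 3.80. With the block, the TAp63-/- minus WT SCC values turned to -0.56 for miR-21a-3p and -0.83 for the arm difference, and the interaction of the arm difference became a call at -2.28 (adjusted p = 0.0194). No label pairs libraries: same-numbered libraries deviated together with r of -0.15 to 0.07, 1 of 6 skin libraries correlated best with its own number, and apart from these, the skin arm difference included, no call of the arms changed with the block.

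Counts over all miRNAs also moved. The 99 called in WT tumours were 62 in the WT groups alone, 41 with the block and 32 to 118 with a library left out. The 186 called in TAp63-/- tumours were 123 with the block. In skin, between genotypes, 0 became 22 with library weights. Between tumours, 1 became 0 to 13, and for the interaction 0 became up to 11 without WT SCC replicate 2. Of arm pairs, the 43 in WT tumours were 28 in the WT groups alone and 16 without WT SCC replicate 1. The 38 in TAp63-/- tumours were 24 without TAp63-/- skin replicate 1. The 5 between skins were 0 to 16, and the interaction's 0 was up to 12. Median-ratio scaling moved the median tumour change of all miRNAs from 0.04 to 0.16, and cancels in the arm difference. Where a WT SCC library was left out, the other was assumed to vary like the other groups. The cause of these changes was not tested.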
